A study of Zonotrichia albicollis with 38 samples.

Results

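Ribosomal protein genes encode the proteins of the ribosome that works in the cytosol. The small subunit reads the mRNA, and the large subunit joins amino acids into a chain. Each protein is built into the ribosome in a fixed proportion, and in mammals most of these mRNAs carry a terminal oligopyrimidine start through which the kinase complex mTORC1 controls their translation together. The set described here holds every gene of the count table whose symbol is RPL or RPS with a number and at most 1 letter or an L, or RPLP0 to RPLP2 or RPSA, at a mean of at least 1 CPM (counts scaled to the library's total). It found 42 genes among the 15111 genes counted, 27 of the large subunit and 15 of the small subunit. RPL3L, a relative of RPL3, was the only gene that the names found and the level left out, with a mean of 0.617 CPM, while the lowest genes inside were RPS27L at 32.4, RPL29 at 48.9 and RPS15 at 59.2 CPM. All 42 passed the filter on low counts in every comparison.

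The samples were 38 RNA-seq libraries from 19 free-living male white-throated sparrows (Zonotrichia albicollis), 10 of the white-striped morph (WS) and 9 of the tan-striped morph (TS). WS birds carry an inverted copy of a large chromosome that TS birds lack. Each bird gave 1 hypothalamus (HYP) and 1 medial amygdala (MeA) library, made from 4 pooled punches of 1 mm, and the birds were taken in the breeding season after a staged intrusion into their territory the day before. By the labels, 8 of the 10 WS birds and 2 of the 9 TS birds were in the older age class (ASY), the other birds were in the younger one (SY), and 8 WS and 6 TS birds were at stage E, a code the labels do not explain.

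Libraries held between 7150476 and 14482856 counts, and the 42 genes took 55654 to 125144 of them per library. Of 8 hypothalamic markers tested, 7 were higher in HYP, and all 11 pallial markers were lower in HYP, so the regional labels fitted their tissue. A further 18 genes carry only a locus number in the count table and are named as ribosomal proteins by the RefSeq gene table of assembly bZonAlb1.hap1, RPS2, RPL8 and RPSA among them. They fell outside the name rule and are given beside the 42 as a separate set, chosen after the file was seen. Levels below are CPM on 1 TMM scale over all libraries, and since no transcript lengths were at hand, levels of different genes are not compared.

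The ribosomal protein genes stood at about the same summed level in both regions, with small opposite differences of single genes. Summed over the 42, the level was 7413 CPM at the lowest, 8108 at the median and 8926 at the highest in HYP, against 7097, 7971 and 9370 CPM in MeA, a difference of 0.0076 in mean log2 level (0.16 with library totals in place of TMM, under which the median of all genes moved about as far). The regions overlapped over most of their range, and MeA libraries were spread more widely, with an SD of 729 CPM against 374 CPM in HYP (n = 19 each). Within birds, the sum was higher in HYP in 12 of 19, in 4 of the 10 WS birds and in 8 of the 9 TS birds. This tally depended on the scaling, since with library totals the sum was higher in HYP in 18 of 19 birds, in 9 of the 10 WS and in all 9 TS birds.

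**Figure D1:**
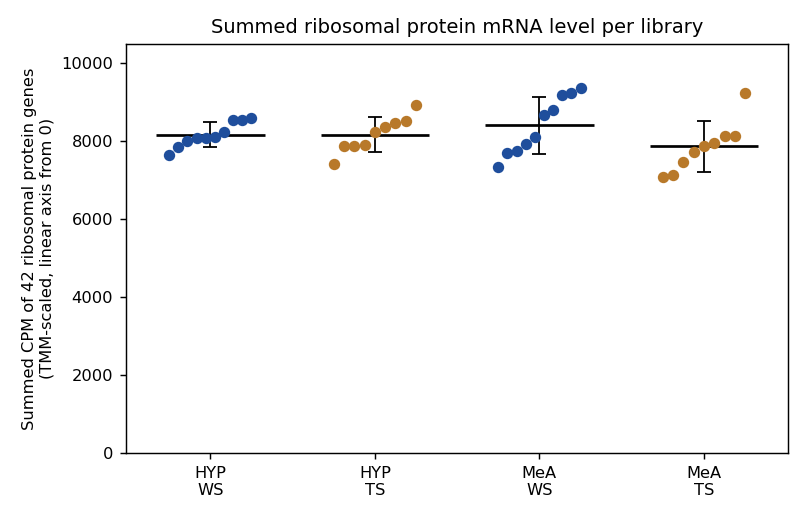
Summed level of the 42 ribosomal protein genes in each library, in TMM-scaled CPM on a linear axis from 0, by region and morph; points are birds, the line is the group mean and the bar 1 SD (WS n = 10, TS n = 9). HYP groups lie between 7413 and 8926 CPM, while MeA libraries span 7097 to 9370 CPM, with a single TS bird at 9249 CPM above the other TS birds.

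Between HYP and MeA, 19 of the 42 genes differed at an edgeR adjusted p under 0.05, with the bird as a block. That was 45.2% of them, beside 79.8% of the 12245 genes tested. Of the 19, 8 were higher in HYP (40.8% of all genes were) and 11 were lower (39% of all genes). The differences were small: their size had a median of 0.053 on the log2 scale, against 0.32 over all genes, and none of the 42 exceeded 0.25, against 57.9% of all genes. The median log2 difference was −0.0050, beside 0.011 over all genes tested. In the large subunit 5 of 27 genes were higher and 5 lower in HYP, and in the small subunit 3 of 15 were higher and 6 lower.

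These directions depended on the scaling. With library totals in place of TMM, 31 of the 42 genes were called, all higher in HYP, beside 10202 of all 12245 genes called in either direction. The median of all genes then moved by 0.16 to 0.17, and the median of the 42 moved with it to 0.15. The 50 most abundant genes took a median of 10.5% of the counts in HYP and 11.4% in MeA. Set against the median of all genes, the ribosomal protein genes stood at −0.016 under either scaling. What follows is therefore relative to the bulk of genes. All 8 genes higher in HYP were also called higher with library totals. Of the 11 lower ones 10 were no longer called and 1, RPL35A, was called higher, and 7 of the 11 had a positive estimate. The change of scaling raised all 42 genes by nearly the same amount, differing by at most 0.00019 relative to their median. These changes of call follow from that shift and are no separate check of single genes.

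RPL3, a large subunit protein close to the site of peptide bond formation, showed the clearest rise in HYP. Its level was 237 CPM at the lowest, 277 at the median and 298 at the highest in HYP, against 207, 227 and 287 CPM in MeA. The ranges overlapped between birds, but all 19 birds had more in HYP than in their own MeA (edgeR adjusted p = 2.05e-08, log2 fold change 0.23 with an SE of 0.025). Among TS birds the lowest HYP value, 261 CPM in bird Sample_23620, stood apart from the rest. RPL21, also of the large subunit, ran from 239 through a median of 267 to 293 CPM in HYP, against 204, 231 and 281 CPM in MeA. It was higher in HYP in 17 of 19 birds (log2 fold change 0.17, SE 0.029, edgeR adjusted p = 1.14e-05).

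RPLP0 forms the base of the stalk to which elongation factors bind. It had 297, 324 and 360 CPM at the lowest, median and highest HYP library, against 253, 290 and 345 CPM in MeA, and was higher in HYP in 18 of 19 birds (log2 fold change 0.14, SE 0.021, edgeR adjusted p = 2.62e-06). RPS6, the small subunit protein that S6 kinases phosphorylate under mTORC1, had 295, 349 and 377 CPM in HYP, against 268, 308 and 375 CPM in MeA (log2 fold change 0.13, SE 0.027, edgeR adjusted p = 9.55e-05, 15 of 19 birds). RPL6, RPS15A and RPL31 were also higher in HYP. RPL6 averaged 263 ± 15.8 CPM in HYP and 245 ± 19.8 CPM in MeA (SD, n = 19 each), a log2 fold change of 0.11. For RPS15A the log2 fold change was 0.077. RPL31 had 0.064 (edgeR adjusted p = 0.0312), a call lost in 7 of the 27 alternatives run.

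Among the genes lower in HYP was RPL11, which with RPL5 and a ribosomal RNA forms a particle that in mammals also restrains the p53 inhibitor MDM2. RPL11 had 143, 163 and 181 CPM at the lowest, median and highest HYP library, against 157, 180 and 209 CPM in MeA. It was lower in HYP in 18 of 19 birds (edgeR adjusted p = 2.03e-06, log2 fold change −0.18 with an SE of 0.027). The lowest value, that of WS bird Sample_23710, stood apart from the other WS birds. Its partner RPL5 had a log2 fold change of −0.018, which was not called. RPS25, a small subunit protein known in cultured cells for initiation on viral mRNAs, had 118, 127 and 150 CPM in HYP, against 124, 141 and 177 CPM in MeA. Here all 19 birds were lower in HYP (log2 fold change −0.16, SE 0.030, edgeR adjusted p = 3.51e-05). RPS14, of the small subunit, had 196, 225 and 265 CPM in HYP, against 214, 244 and 307 CPM in MeA (log2 fold change −0.17, SE 0.037, edgeR adjusted p = 0.000271, lower in 15 of 19 birds).

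RPS23, a protein of the decoding centre, averaged 317 ± 26.8 CPM in HYP and 355 ± 45.8 CPM in MeA (SD, n = 19 each), a log2 fold change of −0.16. RPS15 averaged 56.3 ± 6.57 CPM in HYP and 62.4 ± 8.26 CPM in MeA, with a log2 fold change of −0.15. RPL22, which has a close relative in RPL22L1, averaged 81.2 ± 6.23 CPM in HYP and 89.9 ± 10.3 CPM in MeA (log2 fold change −0.14). Its relative, outside the name rule, differed the other way, with a log2 fold change of 0.48 for RPL22L1 (SE 0.035, edgeR adjusted p = 6.54e-12). RPS27A (−0.13), RPS7 (−0.12), RPL29 (−0.095), RPL13 (−0.088) and RPL35A (−0.072) were the remaining log2 fold changes called lower in HYP. With library totals the estimates of RPS15, RPL22 and all 5 of these turned positive.

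**Figure D2:**
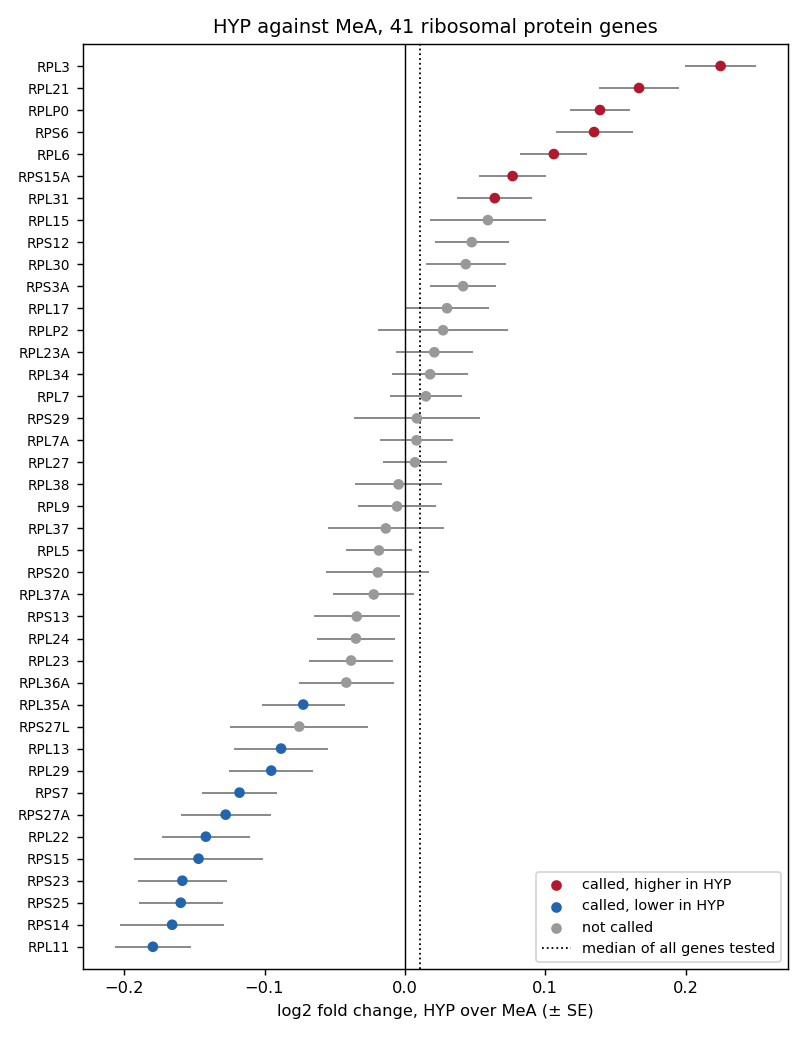
Log2 fold change of HYP over MeA for 41 of the 42 ribosomal protein genes, with 1 SE either side; red points were called higher and blue points lower in HYP at an edgeR adjusted p under 0.05, grey points were not called. Values run from −0.18 for RPL11 to 0.23 for RPL3 around the median of all genes tested at 0.011 (dotted line); with library totals the whole set lies higher by 0.16.

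The proportions among the genes do not depend on the scaling. The summed level of the large subunit genes over that of the small subunit genes was 1.57 at the lowest, 1.63 at the median and 1.69 at the highest in HYP, against 1.54, 1.59 and 1.66 in MeA. The ratio was higher in HYP in all 19 birds, although the regions overlapped between birds. Between morphs it differed by less than the spread of either, averaging 1.63 ± 0.019 in WS and 1.63 ± 0.040 in TS in HYP, and 1.59 ± 0.018 in WS and 1.59 ± 0.042 in TS in MeA (SD, n = 10 and 9). Among the 18 further genes, 3 were called higher and 5 lower in HYP. The widest difference was that of RPS2, a small subunit protein near the mRNA entry, which was lower in HYP in all 19 birds. RPS2 averaged 77.6 ± 7.22 CPM in HYP and 98.1 ± 13.9 CPM in MeA (SD, n = 19 each; log2 fold change −0.33, SE 0.037, edgeR adjusted p = 1.45e-08).

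Cell type markers differed between the regions too. All 3 oligodendrocyte markers, all 4 astrocyte markers and all 4 microglia markers were called lower in HYP, with median log2 fold changes of −1.33, −0.52 and −0.68. Of 8 neuron markers 3 were called higher and 5 lower (median −0.68). Among 5 endothelial and 5 meningeal markers tested 4 each were called lower, and of 3 ependymal and choroid markers 2 were called higher. Summed astrocyte marker levels ran from 3340 to 4293 CPM in HYP and from 5452 to 8483 CPM in MeA without overlap. Their part in the regional differences of the ribosomal protein genes was not tested, and in bulk tissue fewer cells of a type and less RNA per cell cannot be told apart.

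In HYP the morphs had nearly equal summed levels. WS birds had 7664, 8104 and 8593 CPM at the lowest, median and highest library, against 7413, 8253 and 8926 CPM in TS birds, a difference of 0.00035 in mean log2 level. None of the 42 genes was called by edgeR (0.796% of 11930 genes were), nor by DESeq2. At an unadjusted p under 0.05 there were 4 of 42, or 9.52%, against 7.59% of all genes. All 4 were of the small subunit. The median log2 difference was −0.0074, 17 of 42 values were positive, and the widest negative one was −0.26 for RPS29, a small zinc-binding protein (SE 0.091, edgeR adjusted p = 0.333). RPS29 had 76.1, 108 and 129 CPM in WS, against 103, 126 and 153 CPM in TS, and its groups overlapped. RPS15 had a log2 difference of −0.14 (edgeR adjusted p = 0.64), and the other 2 were RPS27A and RPS12, described with their chromosome below.

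In MeA nearly all the genes had a higher estimate in WS, though none passed edgeR's test and DESeq2 called 1, RPS27A. Over all 11672 genes DESeq2 called more than edgeR, 118 against 61. WS birds had summed levels of 7356, 8388 and 9370 CPM at the lowest, median and highest library, against 7097, 7890 and 9249 CPM in TS birds, a difference of 0.095 in mean log2 level. The mean of 8411 ± 733 CPM for WS birds (SD, n = 10) stood beside 7873 ± 648 CPM for TS birds (SD, n = 9), so the difference was smaller than the spread within either morph. Log2 differences were positive for 41 of the 42 genes, where 50.4% of all genes were positive, with a median of 0.096 beside 0.0011 over all genes tested. None was called by edgeR (0.523% of 11672 genes were), and 7 of 42, or 16.7%, had an unadjusted p under 0.05, against 8.85% of all genes. The 42 genes rise and fall together across birds, as described below, so their 41 like signs are not 41 separate observations. The 18 further ribosomal protein genes were positive in 18 of 18, with a median of 0.093 and none called by edgeR.

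RPS27L, a close relative of RPS27 that p53 induces in mammals, had 27.2, 37.5 and 41.2 CPM in WS MeA, against 25.9, 28.5 and 43.5 CPM in TS MeA. Of the WS birds 9 of 10 lay above the TS mean, and 4 of 9 TS birds lay below every WS bird, but the highest value of all was that of a TS bird, Sample_23711 (log2 difference 0.27, SE 0.096, edgeR adjusted p = 0.383, and 0.0357 without that bird). Each bird was left out in turn, and this bird's value lies most against the difference, so the second p is no separate evidence. RPL23, a large subunit protein that binds MDM2 in mammals, had 185, 216 and 255 CPM in WS MeA, against 157, 193 and 237 CPM in TS MeA (log2 difference 0.18, SE 0.075, edgeR adjusted p = 0.508). The single gene with a lower estimate in WS MeA was RPS29 (−0.096).

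**Figure D3:**
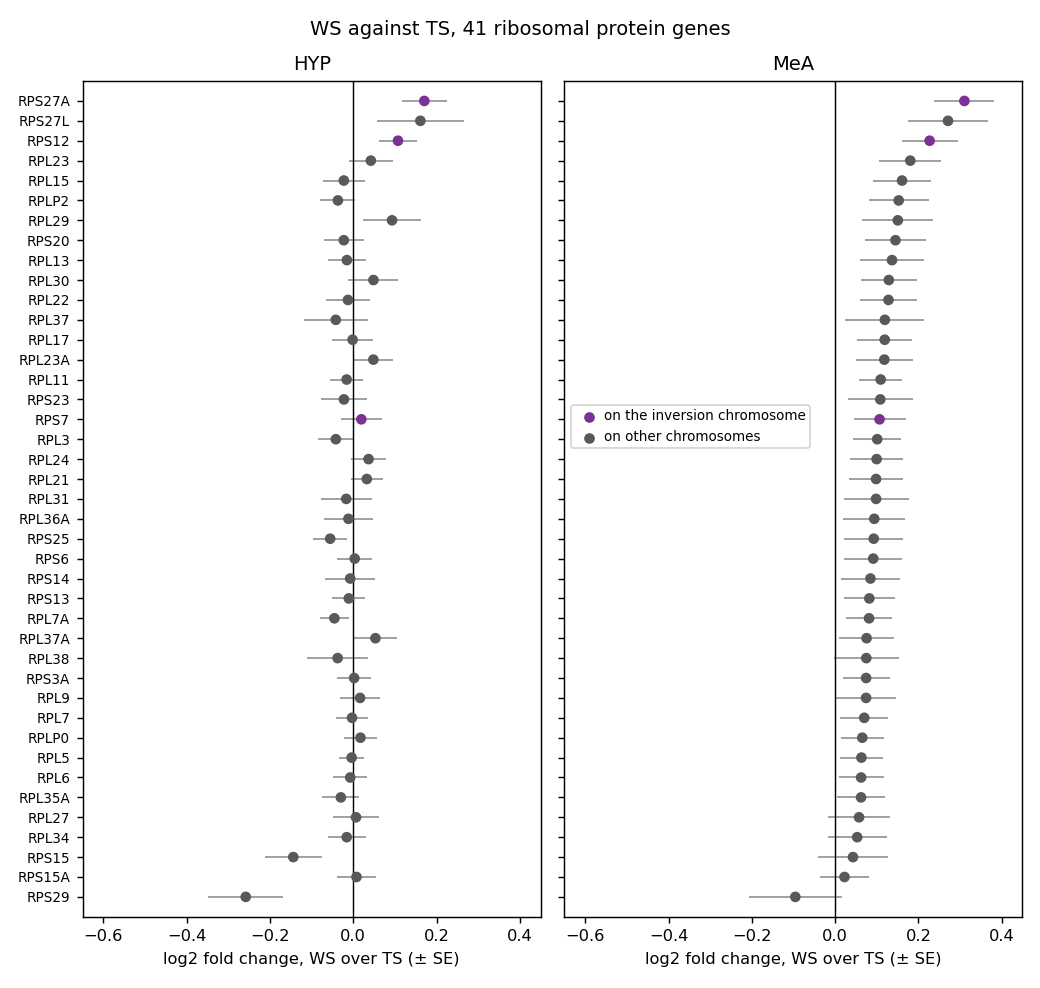
Log2 difference of WS over TS for 41 of the 42 ribosomal protein genes in HYP (left) and MeA (right), with 1 SE either side; purple points are the 3 genes of the inversion chromosome, and genes keep the order of MeA in both panels. Values lie around 0 in HYP (median over the 42 genes −0.0074) and are positive in MeA for every gene drawn except RPS29 (median over the 42 genes 0.096), with RPS27A highest in both panels; edgeR called none, and DESeq2 called RPS27A in MeA.

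The morph difference was next compared between the regions. Each gene's log2 difference of WS over TS in HYP minus that in MeA was negative for all 42 genes, with a median of −0.093 beside −0.0042 over all genes. None was called by edgeR (0.0245% of all genes were) and 16 of 42, or 38.1%, had an unadjusted p under 0.05, against 10.5% of all genes. DESeq2 likewise called none, with 16 at an unadjusted p under 0.05. The smallest p was that of RPL3 (−0.14, SE 0.042, edgeR adjusted p = 0.338), with −0.042 in HYP and 0.10 in MeA. All 18 further genes were negative as well. The genes vary together across birds, so these counts are not separate observations, and the term is not separate from the MeA differences above. With edgeR, 2 of the 42 had an unadjusted p under 0.05 without the bird as a block, and 8 in stage E birds alone. Of 62 respiratory chain and ATP synthase genes 4 were positive, where 48.7% of all genes were, and 16 had an unadjusted p under 0.05.

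Age class, stage and markers were uneven beside these levels. In MeA the 14 birds at stage E had summed levels of 7144 to 9370 CPM with a median of 8145, and the 5 birds at other stages 7097 to 8103 CPM with a median of 7691. Within stage E, WS birds had a median of 8737 CPM (n = 8) and TS birds 8058 CPM (n = 6), and 40 of 42 log2 differences were positive, with a median of 0.079 and none called by edgeR. With age class as a covariate 41 of 42 stayed positive, with a median of 0.10 and a lowest edgeR adjusted p of 0.333. All 4 astrocyte markers were positive in WS MeA (median log2 difference 0.15, none called), with summed levels of 5837 to 8483 CPM in WS and 5452 to 7348 CPM in TS. Among them GJA1 lies on the chromosome that carries the inversion. All 3 oligodendrocyte markers were negative (median −0.17, none called), with 1517 to 4919 CPM in WS and 2748 to 5513 CPM in TS. All 4 microglia markers were positive (median 0.094, none called), with 44.2 to 87.6 CPM in WS and 39.6 to 75.9 CPM in TS. The part of these markers in the morph difference was not tested.

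Between age classes no ribosomal protein gene was called by edgeR or DESeq2, with morph as a covariate, and no gene of the whole table was called by edgeR either (0% in HYP and 0% in MeA). In HYP 1 of 42 genes had an unadjusted p under 0.05 (4.71% of all genes did), and in MeA 0 of 42 (3.58% of all genes), by DESeq2 likewise 1 and 0. That gene was RPL38, a large subunit protein, with a log2 difference of ASY over SY of 0.20 (SE 0.084, edgeR adjusted p = 0.986). Summed levels ran from 7664 to 8593 CPM in ASY and 7413 to 8926 CPM in SY birds in HYP, and from 7356 to 9253 CPM in ASY and 7097 to 9370 CPM in SY birds in MeA.

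Of the 42 genes, 3 lie on the chromosome that carries the inversion (chromosome 3 of the gene table, on which all 32 of the listed marker genes of the inversion lie): RPS27A, RPS12 and RPS7. On this chromosome 9.37% of genes were called between the morphs in HYP and 6.24% in MeA. At an unadjusted edgeR p under 0.05 there were 34.7% in HYP and 31.9% in MeA. Neither these 3 nor any other of the 42 genes had groups without overlap between the morphs, as 0.268% of all genes did in HYP and 0.206% in MeA.

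RPS27A encodes a small subunit protein made as a fusion with ubiquitin, from which it is cut free. In MeA its level was 122 CPM at the lowest, 143 at the median and 172 at the highest in WS, against 103, 115 and 140 CPM in TS. All 10 WS birds lay above the TS mean and 6 above every TS bird (log2 difference 0.31, SE 0.072). This fell short of the threshold with edgeR (adjusted p = 0.0514). DESeq2 called it (adjusted p = 0.00961), and so did edgeR without bird Sample_23604, Sample_23617, Sample_23625, Sample_23705 or Sample_23711. Each bird was left out in turn, and those named held the lowest WS or the highest TS levels of RPS27A. Their values lie most against the difference, so these calls are no separate evidence. The lowest edgeR adjusted p of any of the 42 genes was 0.535 among stage E birds alone and 0.333 with age class as a covariate. Over all genes edgeR called 16 and 18 under these 2 settings, beside 61 in the main fit. In HYP RPS27A had 114, 123 and 148 CPM in WS, against 95.7, 113 and 125 CPM in TS (log2 difference 0.17, SE 0.053, edgeR adjusted p = 0.231). Again all 10 WS birds lay above the TS mean, and 5 above every TS bird.

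As a share of the summed level of the 42 genes, which no scaling moves, RPS27A made up 1.71% ± 0.093 in WS and 1.48% ± 0.12 in TS in MeA, and 1.54% ± 0.098 in WS and 1.37% ± 0.066 in TS in HYP (SD, n = 10 and 9). By this share 7 of 10 WS birds exceeded every TS bird in HYP and 4 of 10 did in MeA.

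RPS12, also a small subunit protein, had 215, 244 and 273 CPM in WS MeA, against 170, 204 and 257 CPM in TS MeA. All 10 WS birds lay above the TS mean (log2 difference 0.23, SE 0.067, edgeR adjusted p = 0.209). In HYP it had 214, 245 and 258 CPM in WS, against 196, 225 and 257 CPM in TS (log2 difference 0.11, SE 0.045, edgeR adjusted p = 0.551). Its share of the summed level was 2.89% ± 0.13 in WS and 2.63% ± 0.14 in TS in MeA, and 2.95% ± 0.13 in WS and 2.74% ± 0.15 in TS in HYP, and in each region 7 of 10 WS birds exceeded every TS bird. RPS7, which takes part in making the small subunit RNA, had log2 differences of 0.019 in HYP and 0.11 in MeA, not called in either. Its share was 2.86% ± 0.17 in WS and 2.81% ± 0.17 in TS in HYP, and 3.12% ± 0.23 in WS and 3.08% ± 0.17 in TS in MeA, less apart than the birds within a morph.

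**Figure D4:**
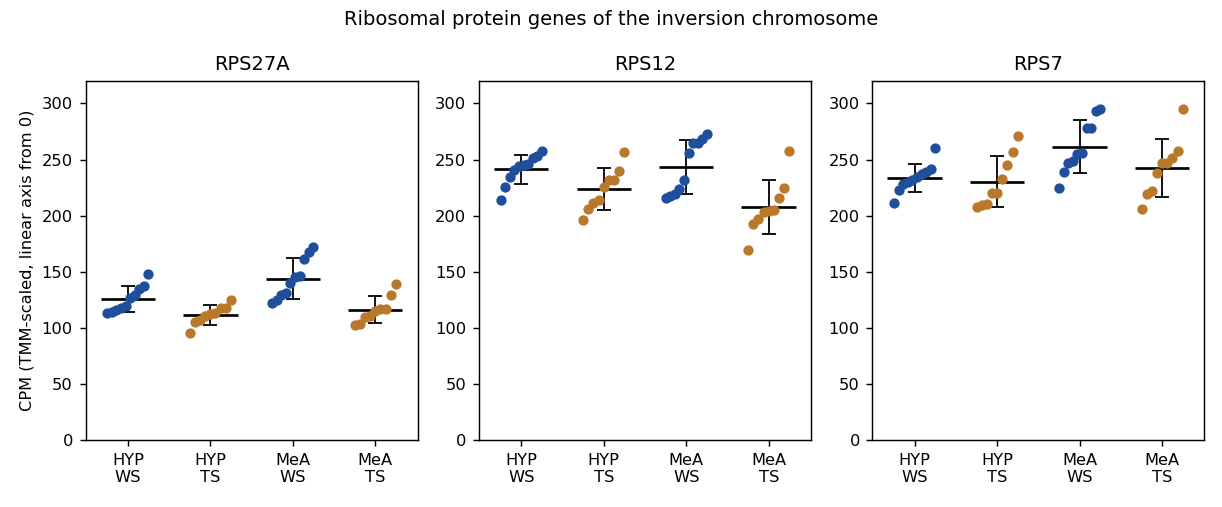
TMM-scaled CPM of RPS27A, RPS12 and RPS7 per bird on a linear axis from 0, by region and morph; lines are means and bars 1 SD (WS n = 10, TS n = 9). RPS27A and RPS12 are shifted upward in WS with overlapping groups, most in MeA for RPS27A (122 to 172 CPM in WS, 103 to 140 CPM in TS), and no WS bird lies above every TS bird in RPS7; edgeR called no difference, and DESeq2 called RPS27A in MeA.

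Within a region and morph, birds differed from each other in most of these genes together. Deviations of log2 CPM from the morph mean were correlated between pairs of the 42 genes with a median r of 0.39 in HYP, where 90.8% of the 861 pairs were positive, and of 0.64 in MeA, where 100% were. Between pairs of all genes tested the median was −0.00061 and −0.0011. Within other lists the median r was higher in HYP for oligodendrocyte (0.96), microglia (0.51) and astrocyte markers (0.43) and immediate early genes (0.56). In MeA it was higher for oligodendrocyte (0.95) and meningeal markers (0.89). The other lists compared were lower in each region, such as respiratory chain and ATP synthase genes (0.24 in HYP, 0.50 in MeA). The first principal component held 41.4% of the variance of the 42 genes in HYP and 63.5% in MeA, beside 12.1% and 21.9% over all genes. These are descriptions over 19 birds, in which all genes of a library share its depth and its RNA. The jackknife SE over birds was 0.093 for the median r in HYP and 0.070 in MeA. Pairs of large subunit genes had a median r of 0.34 in HYP and 0.63 in MeA, pairs of small subunit genes 0.49 and 0.62, and mixed pairs 0.42 and 0.66. The 42 genes and the 18 further ones had a median r of 0.41 in HYP and 0.63 in MeA.

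The common level leaned the same way in the 2 brain regions of most birds. Of the 19 birds, 16 lay on the same side of their morph mean in HYP and MeA. Ranks could still differ, as for bird Sample_23620, at rank 7 in HYP and 16 in MeA. Over 11434 genes the 2 libraries of each bird were also most alike (own r 0.28 to 0.47), so such likeness was not particular to the 42 genes. Bird Sample_23626, a TS male, had the lowest sum in both, 7413 CPM in HYP and 7097 CPM in MeA. Bird Sample_23711, also TS, had the highest sum of all in HYP, 8926 CPM, and 9249 CPM in MeA, where 2 birds were higher. In mean deviation of the 42 genes, birds ran from −0.15 (Sample_23626) to 0.13 (Sample_23711) in HYP and from −0.18 (Sample_23625) to 0.24 (Sample_23711) in MeA on the log2 scale. Bird Sample_23711's libraries held 11380130 counts in HYP and 10498905 in MeA, within the range of the others. Its MeA library held more meningeal marker signal than any other MeA library, 343 CPM summed, where the middle MeA library held 115 CPM. The red cell marker SLC4A1 was also high there, at 34.7 CPM beside 13.0 CPM in the middle library, but 47.5 CPM was reached in MeA. In HYP this bird was itself the middle library for meningeal markers (43.4 CPM). Whether these markers bear on its ribosomal protein levels was not tested.

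The spread of single genes was small. The median SD of log2 CPM was 0.11 in HYP and 0.16 in MeA, beside 0.15 and 0.20 over all genes tested. All genes tested were not matched to the 42 in level, here or in the correlations above. RPL35A followed the mean of the other 41 genes best in HYP (r = 0.84), and RPL37 (0.79) was also among the closest. In MeA, RPS3A (r = 0.94), RPL21 (0.93) and RPL23A (0.91) did. Least like the rest in HYP were RPS27L (r = 0.065), RPLP2 (0.14), a protein of the stalk, and RPL15 (0.16). In MeA, RPL15 (0.53), RPL27 (0.55) and RPS27L (0.59) were last, so RPS27L and RPL15 stood among the last in both regions. RPS27L was also the most variable gene in HYP (SD 0.24 on the log2 scale), followed by RPS29 (0.22), while RPL5 was the steadiest (0.054).

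**Figure D5:**
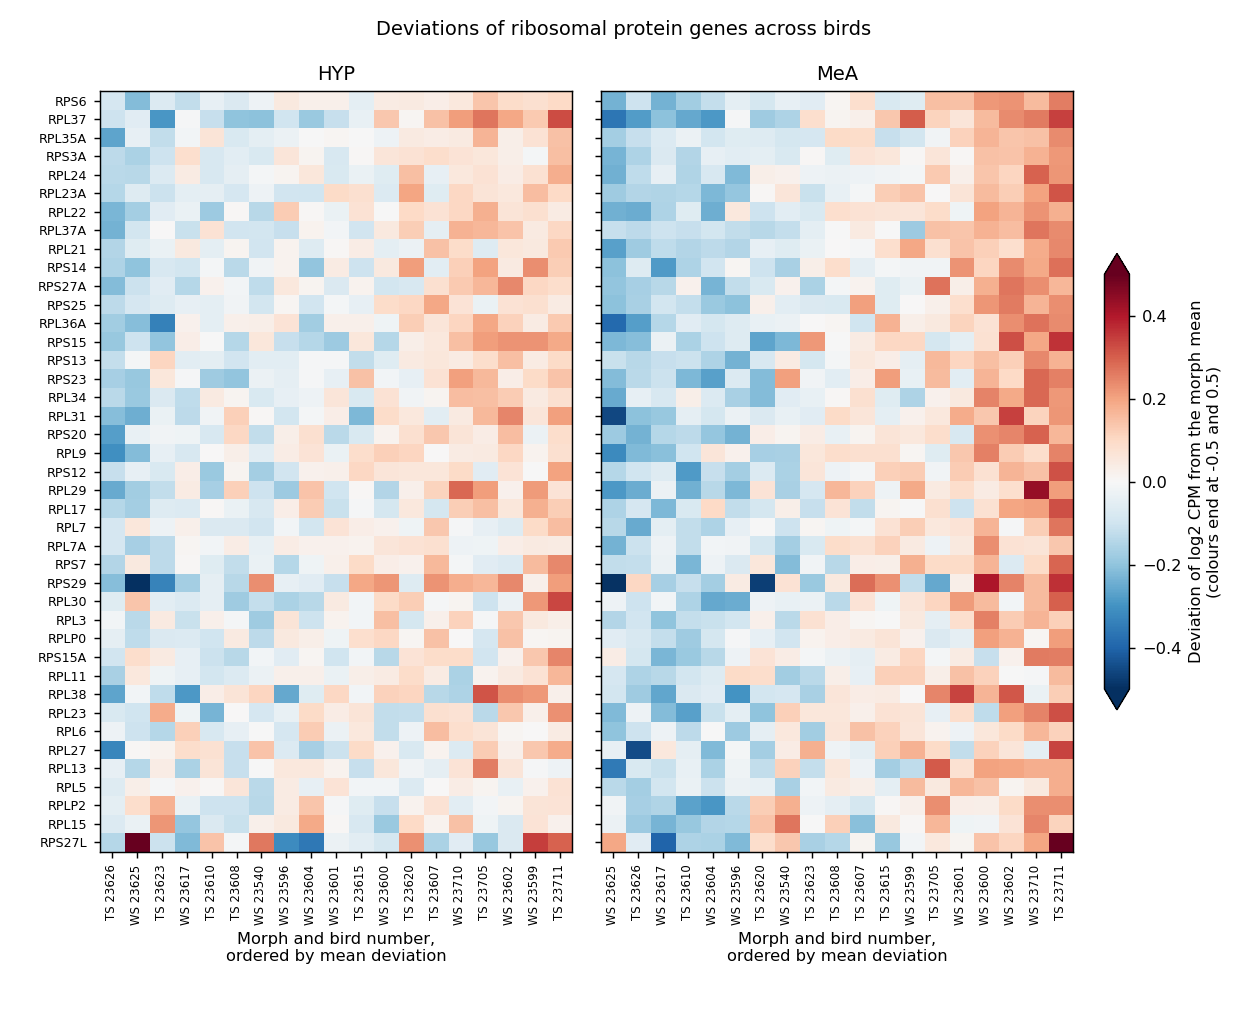
Deviation of log2 CPM from the morph mean for 41 of the 42 ribosomal protein genes (rows, ordered by their mean correlation with the other genes over both regions) in each bird (columns, ordered by mean deviation) in HYP (left) and MeA (right); red is above and blue below the mean, and colours end at −0.5 and 0.5. Columns toward either end take mostly 1 colour, more so in MeA, from bird Sample_23626 in HYP and Sample_23625 in MeA to bird Sample_23711 at the high end of both. Columns between them hold both colours. The bottom row, RPS27L, follows the columns least over both regions.

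Outside the 42 and the 18 further genes, the gene most like their mean in HYP was a locus named RPL26L1 (r = 0.90), a relative of the large subunit protein RPL26, which also stood among the 5 most alike in MeA (r = 0.91). POLR2F, a subunit shared by the nuclear RNA polymerases, came next in HYP (r = 0.89), then PSMA3, a proteasome subunit (0.81), FAM213A (0.80) and the locus LOC102062981 (0.79). In MeA the locus LOC102071081 led (r = 0.94), followed by EEF1B2 (0.92), an elongation factor whose mammalian mRNA also has a terminal oligopyrimidine start, and after RPL26L1 came LAMTOR2 (0.86), of the lysosomal platform of mTORC1, and HAGH (0.86), a glyoxalase. With the 18 further ribosomal protein genes ranked as well, 1 of them was among the 5 most alike in HYP and 2 in MeA, and 10 were among the 50 most alike in HYP and 7 in MeA. By lists, the median r with the 42 genes in MeA was 0.48 for 62 respiratory chain and ATP synthase genes, 0.47 for 4 astrocyte markers and 0.46 for 18 other mRNAs of the oligopyrimidine class and ribosome partners. It was −0.35 for 3 oligodendrocyte and −0.32 for 4 microglia markers. In HYP the same lists had 0.20, 0.27, 0.23, −0.15 and −0.062. The part of cell type markers in the common variation was not tested.

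The genes that make and use ribosomes did not follow 1 pattern between the regions. Over all genes tested, 40.8% were called higher and 39% lower in HYP. Of 12 elongation factors 7 were called higher and 4 lower in HYP, EEF2, which moves the ribosome along the mRNA, with a log2 fold change of 0.19. Of 41 initiation factors 9 were higher and 18 lower, and of 70 ribosome assembly genes 35 were higher and 15 lower (median 0.082 beside 0.011 over all genes), NOC4L with 0.94. Of 16 RNA polymerase I genes 6 were higher and 7 lower, of 25 genes of mTORC1 and its control of oligopyrimidine mRNAs 9 were higher and 10 lower, and of 18 other mRNAs of that class and partners 6 were higher and 7 lower. In the RNA polymerase I, mTORC1 and other oligopyrimidine lists both directions lay near the shares over all genes. The lists overlap, since most of the other oligopyrimidine mRNAs and partners are also counted in another list. Mitochondrial ribosomal proteins, a separate family, were higher in 14 and lower in 23 of 60. The 30 proteasome genes had 3 higher and 17 lower, and the 62 respiratory chain and ATP synthase genes had 4 higher and 53 lower in HYP (median −0.31). The mitochondrial, proteasome and respiratory chain lists were drawn by symbol alone. They therefore include PSMC3IP, which is no proteasome subunit, and the assembly factors NDUFAF1 to NDUFAF7, and MRPL28 stands in its list more than once.

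Between the morphs few genes of these lists were called, and 4 of them are given here. In HYP edgeR called 2 of 70 ribosome assembly genes higher and 1 lower in WS. It called 1 each of 16 RNA polymerase I genes, 60 mitochondrial ribosomal proteins and 62 respiratory chain and ATP synthase genes. In MeA 1 gene was called in each of these lists. Over all genes 0.796% were called in HYP and 0.523% in MeA. Of these calls 82 of 95 and 53 of 61 lie on the inversion chromosome. POLR1B, MRPS18A and NVL are given without their chromosome. RRP36, which matures small subunit RNA and lies on the inversion chromosome, was lower in WS, with log2 differences of −0.70 in HYP and −0.53 in MeA (edgeR adjusted p = 2.56e-10 and 0.00406). POLR1B, the second largest subunit of RNA polymerase I, was lower in WS, with −0.29 in HYP and −0.37 in MeA (edgeR adjusted p = 0.00814 and 0.00199). MRPS18A, of the mitochondrial ribosome, was higher in WS, with 0.28 in HYP and 0.27 in MeA (edgeR adjusted p = 9.63e-05 and 0.0211). NVL, an assembly ATPase of the large subunit, was called in HYP, with 0.30 (edgeR adjusted p = 0.00814). The lean toward WS in MeA was found in some other lists, with few calls, where 50.4% of all genes were positive. Positive log2 differences were held by 29 of 30 proteasome genes, 56 of 62 respiratory chain and ATP synthase genes, 17 of 18 other oligopyrimidine mRNAs and partners and 42 of 60 mitochondrial ribosomal proteins. Their medians were 0.073, 0.067, 0.057 and 0.052, beside 0.096 for the 42 ribosomal protein genes. Initiation factors had 33 of 41 positive (median 0.044) and elongation factors 8 of 12 (0.031). These counts are not separate, since most of the other oligopyrimidine mRNAs and partners also stand in another list. EEF1A1 and EEF2 are counted as elongation factors too, EIF3E and PABPC1 as initiation factors, COX7C as a respiratory chain gene and NPM1 as an assembly gene. Nearer to an even split were ribosome assembly, 37 of 70 (0.012), RNA polymerase I, 9 of 16 (0.00086), and mTORC1 and its control, 12 of 25 (−0.00011).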

How the data were processed

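RNA from each bird and region (250 ng) was made into libraries with Illumina's TruSeq RNA kit, per the labels' protocols. The authors deposited read counts per gene for all libraries and, per region, variance-stabilized values on a log2-like scale. Novoalign, SAMtools, GATK, STAR, HTSeq and DESeq2 are named in the submitters' processing notes. The deposited counts are labelled NCBI plus Zal2m and minqual0, and beyond this label the sources used here give neither settings nor the genome build. How the reference bears on counts of genes on the inversion chromosome was not tested. Of the count columns, 2 matched no labelled sample and were not used.

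Counts were tested with edgeR 4.0.16 (quasi-likelihood F test, TMM, its filter on low counts) in R 4.3.3, with Benjamini-Hochberg adjustment over all genes tested and calls at an adjusted p under 0.05. The SE given with a log2 fold change or difference is its size divided by the square root of the F statistic. The bird was a block in the regional comparison and in the morph by region term, since each bird gave both regions. For 19 of 19 birds the deviations of the 2 libraries were most alike (own r 0.28 to 0.47, any other bird at most 0.15, over 11434 genes). Levels are CPM on TMM-scaled library sizes over all libraries, and deviations used log2 CPM with a prior count of 1. Alternatives were DESeq2 1.42.0, limma-voom (limma 3.58.1), limma on the deposited log2-scale values, other scalings and filters, stage E alone, age as a covariate and leaving out each bird. The fits were tested on simulated data.

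The members and gene lists were chosen with earlier results of these data known. Genes given singly were the 8 called genes with the most positive and the 8 with the most negative regional fold change, elsewhere the called genes or the 4 of smallest p, those of the inversion chromosome, the extremes of common variation, the 5 genes most like it and, from other lists, those of smallest p. A few genes these rules name are not reported here. RPS2 and RPL22L1 were added after their values were seen. Where ribosomal protein genes have near-identical copies, reads could be split between them, which was not tested.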

Additional observations from a re-analysis of the deposited data

Results flagged for a closer look

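In groups of 9 or 10 birds, 9 of 172 sets of values had a highest or lowest bird that stood apart by Dixon's criterion, where chance alone flags about 1 in 20. Of them 3 concern TS bird Sample_23711 in MeA, which had the highest summed level of its group (9249 CPM, the next TS bird 8146), RPL17 at 227 CPM (next 192) and RPS27L at 43.5 CPM (next 31.5). TS bird Sample_23705 had the highest RPL13 in its HYP group, 113 CPM, the next being 98.6. TS bird Sample_23620 had the lowest RPL3 there, 261 CPM, the next being 275, and TS bird Sample_23626 the lowest RPL9, 245 CPM, the next being 294. In WS HYP, bird Sample_23710 had the lowest RPL11 at 143 CPM (next 156), bird Sample_23625 the lowest RPL7A at 250 CPM (next 273) and bird Sample_23602 the highest RPS13, 120.003 CPM (next 111).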

How the results depend on the processing

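The regional count was the result most moved by processing. Library totals in place of TMM gave 31 genes, 31 higher and 0 lower in HYP, beside 10202 of all 12245 genes called. The log2 difference of the summed level was then 0.163, and this scaling moved the median of all genes as well. Under it the log2 fold changes of RPS15 (0.0081), RPL22 (0.013), RPS27A (0.028), RPS7 (0.037) and RPS27L (0.080) turned positive. Without the bird as a block, 14 genes were called, 6 higher and 8 lower in HYP, and the morph by region term again called 0. Leaving out each bird in turn gave 17 to 21 regional calls, 7 to 11 higher and 9 to 11 lower, beside 9676 to 9754 calls over all genes. For WS against TS in MeA it gave 0 to 2 calls (48 to 61 over all genes), and DESeq2 made 1 call (118 over all genes). All other counts of calls for morph, age class and the morph by region term were 0 under every alternative run. In stage E birds alone RPS7 had a log2 difference of WS over TS in HYP of −0.020. Median pairwise correlations ranged over 0.318 to 0.413 in HYP and 0.595 to 0.666 in MeA when birds were left out, and the share of the first component over 36.5% to 43.3% and 58.7% to 65.7%.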
